A study of Mus musculus with 2 samples.

Results

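The nuclear-encoded genes of the mitochondrial respiratory chain and ATP synthase were followed across the cells of the mouse colon. The members are the genes of the wild-type table whose symbols begin as Ndufa, Ndufb, Ndufc, Ndufs or Ndufv with a number, Sdha to Sdhd, Uqcr, Cox with a number from 4 to 8 and a letter from a to c, or Atp5, and 79 of the 17809 genes of the table matched. They comprise 35 subunits of complex I, 4 of complex II, 8 of complex III, 14 of complex IV (Ndufa4 included), 15 of ATP synthase (complex V) and 3 genes placed outside these sets: Ndufa4l2, Cox7a2l and Atp5s. The symbol pattern misses Cox4i1, Cox4i2, Ndufab1 and Cyc1, which belong to the same complexes. These were kept apart in a list of 8 genes, with Usmg5, a small ATP synthase subunit, cytochrome c (Cycs), the ATP synthase inhibitor Atpif1 and the cristae protein Minos1.

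Single-cell RNA was read at the 3' end of transcripts in 2 droplet libraries. In the first, cells of the colon of wild-type C57BL/6 mice, females 8 to 12 weeks old, were sorted by flow cytometry for EpCAM+ CD45- (epithelial) and EpCAM- CD45- (all else but leukocytes), mixed at equal number and run with the V3 kit. In the second, GFP+ cells of the colon of Pdgfra-H2B-eGFP mice, in which the Pdgfra promoter drives a nuclear green fluorescent protein, were run with the V2 kit, so that cells without Pdgfra were mostly left out by the sort. Each library pooled 3 female mice and no map from cells to mice was used, so every comparison below is between cells of 1 library, with no replicate, no test and no p-value, and the cells are not replicates.

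There were 7495 cells in the wild-type library and 4409 in the reporter library, where 78 of the members were listed (Cox6a2 was not), and 1 cell barcode occurs in both. The values are UMI counts that the authors had corrected to a common depth, called corrected counts here, and a level is the average of a gene's corrected counts over the cells of a class. Totals per cell were 6120 to 16389 in the wild-type library, with a median of 8972 and a median of 2804 genes, and 2314 to 4432 in the reporter library, with a median of 3150. Because depth was adjusted before deposit, the depth behind a value is unknown, and a value above 0 need not match a molecule. Levels were compared only within a library. Members made up 3.01% of all corrected counts in wild-type cells and 1.97% in reporter cells. Epithelial transcripts outside epithelial cells give the size of the background from free RNA, since Epcam averaged 0.644 in the fibroblasts of the wild-type library, 2.56% of its 25.1 in epithelial cells.

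The respiratory chain sits in the inner mitochondrial membrane. Complexes I and II pass electrons from NADH and succinate to ubiquinone, complex III passes them on to cytochrome c and complex IV to oxygen, and ATP synthase uses the proton gradient that builds up. Most subunits are encoded in the nucleus and a small core in mitochondrial DNA, and several complex IV subunits exist in alternative forms made by separate genes in different tissues. In the colon, absorptive cells at the crypt top oxidise butyrate from the gut bacteria, whereas stem cells and dividing progenitors lie at the crypt base.

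Cells were grouped from clusters made without the members, and a cluster was called "X-like" where it held the markers of that type. A goblet-like cluster of 285 cells had only 2 of 6 goblet markers at 2-fold or more over the other epithelial cells. It took the name of the larger cluster it came from. Over epithelial cells outside the goblet-like class, 5 of its goblet markers were at 2-fold or more. The other goblet-like cluster, of 314 cells, was high in Reg4, which the study uses to mark deep crypt secretory cells. The epithelium gave 514 stem-like, 217 transit-amplifying-like (TA-like), 655 enterocyte-like, 599 goblet-like and 82 enteroendocrine-like cells, and 344 cells led by Krt36 to which no marker list gave a name. The stem-like cluster had 5 of 6 stem markers at 2-fold or more, but its leading genes were those of DNA replication (Mcm6, Mcm3, Hells), and its Lgr5 level of 0.539 lay close to the 0.456 of TA-like cells. The stroma gave 797 crypt-top fibroblasts (CTFs-like), 1136 and 559 crypt-bottom fibroblasts of both kinds (CBFs1-like and CBFs2-like), 949 smooth muscle-like, 119 pericyte-like, 590 blood endothelial-like, 78 glia-like and 40 immune-like cells. A further 262 stromal cells stayed unnamed, and 554 cells with both epithelial and stromal genes were left out of the classes.

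The summed level of the members was highest in enterocyte-like cells and lowest in CBFs2-like cells. Enterocyte-like cells held a mean of 547 corrected counts of member genes per cell (5th to 95th percentile of cells, 352 to 714), which was 5.67% of their total. TA-like cells held 417 (251 to 586), stem-like cells 407 (234 to 622) and the cells led by Krt36 397 (236 to 615), and these ranges overlapped almost whole. Goblet-like cells followed with 333 (217 to 459) and enteroendocrine-like cells with 203 (123 to 315), the lowest value in the epithelium. In the stroma, smooth muscle-like cells held the most, 236 (172 to 302), and pericyte-like cells 181, blood endothelial-like 174, CTFs-like 170, glia-like 166, CBFs1-like 162, immune-like 154 and CBFs2-like cells 146. The spread within each of these stromal classes was wider than the gaps between them, apart from smooth muscle-like cells, whose lower quartile of 208 lay above the upper quartile of each fibroblast class. Of the 655 enterocyte-like cells, 654 (99.8%) lay above the 95th percentile of fibroblasts, and 1 of 2492 fibroblasts (0.0401%) lay above the 5th percentile of enterocyte-like cells.

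**Figure D1:**
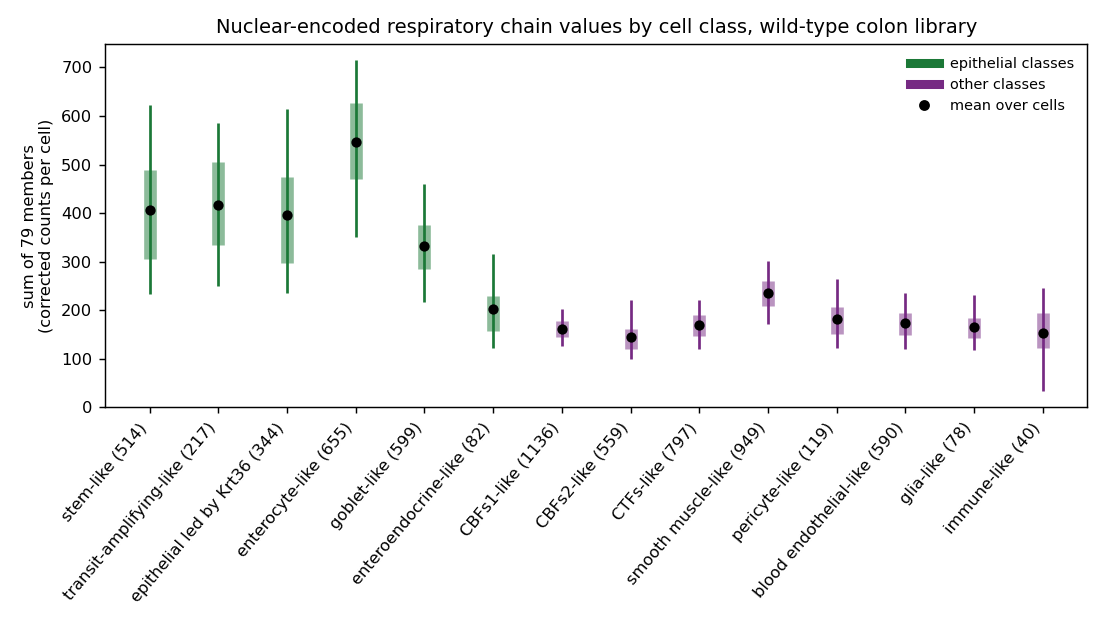
Summed corrected counts of the 79 members per cell (y axis) in each class of the wild-type library (x axis, number of cells in brackets), with a dot for the mean, a bar for the quartiles and a line from the 5th to the 95th percentile of cells. Enterocyte-like cells sit at 547, the base classes near 400 and all stromal classes at or below 236.

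The rank was shared by most members. Among 14 classes, 58 of the 79 members were highest in enterocyte-like cells, 10 in TA-like cells, 5 in the cells led by Krt36 and 3 in stem-like cells. The remaining 3 were highest in the stroma and are all genes with a more widely expressed relative: Cox8b in CBFs2-like, Cox6b2 in smooth muscle-like and Ndufa4l2 in pericyte-like cells. The lowest level was in immune-like cells for 30 members, CBFs2-like cells for 23, glia-like for 12 and CBFs1-like for 10. All genes were not ranked by class in this way, so these counts have no background share beside them. Over all cells the highest members were the small complex IV subunits Cox8a (13.2 corrected counts per cell), Cox6c (11.1) and Cox7c (10.8), and the lowest were Cox6a2 (0.00227), Cox8b (0.0136) and Atp5s (0.107). These are counts of transcript 3' ends, which do not scale with transcript length. The 10 highest members gave 30.9% of the sum.

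**Figure D2:**
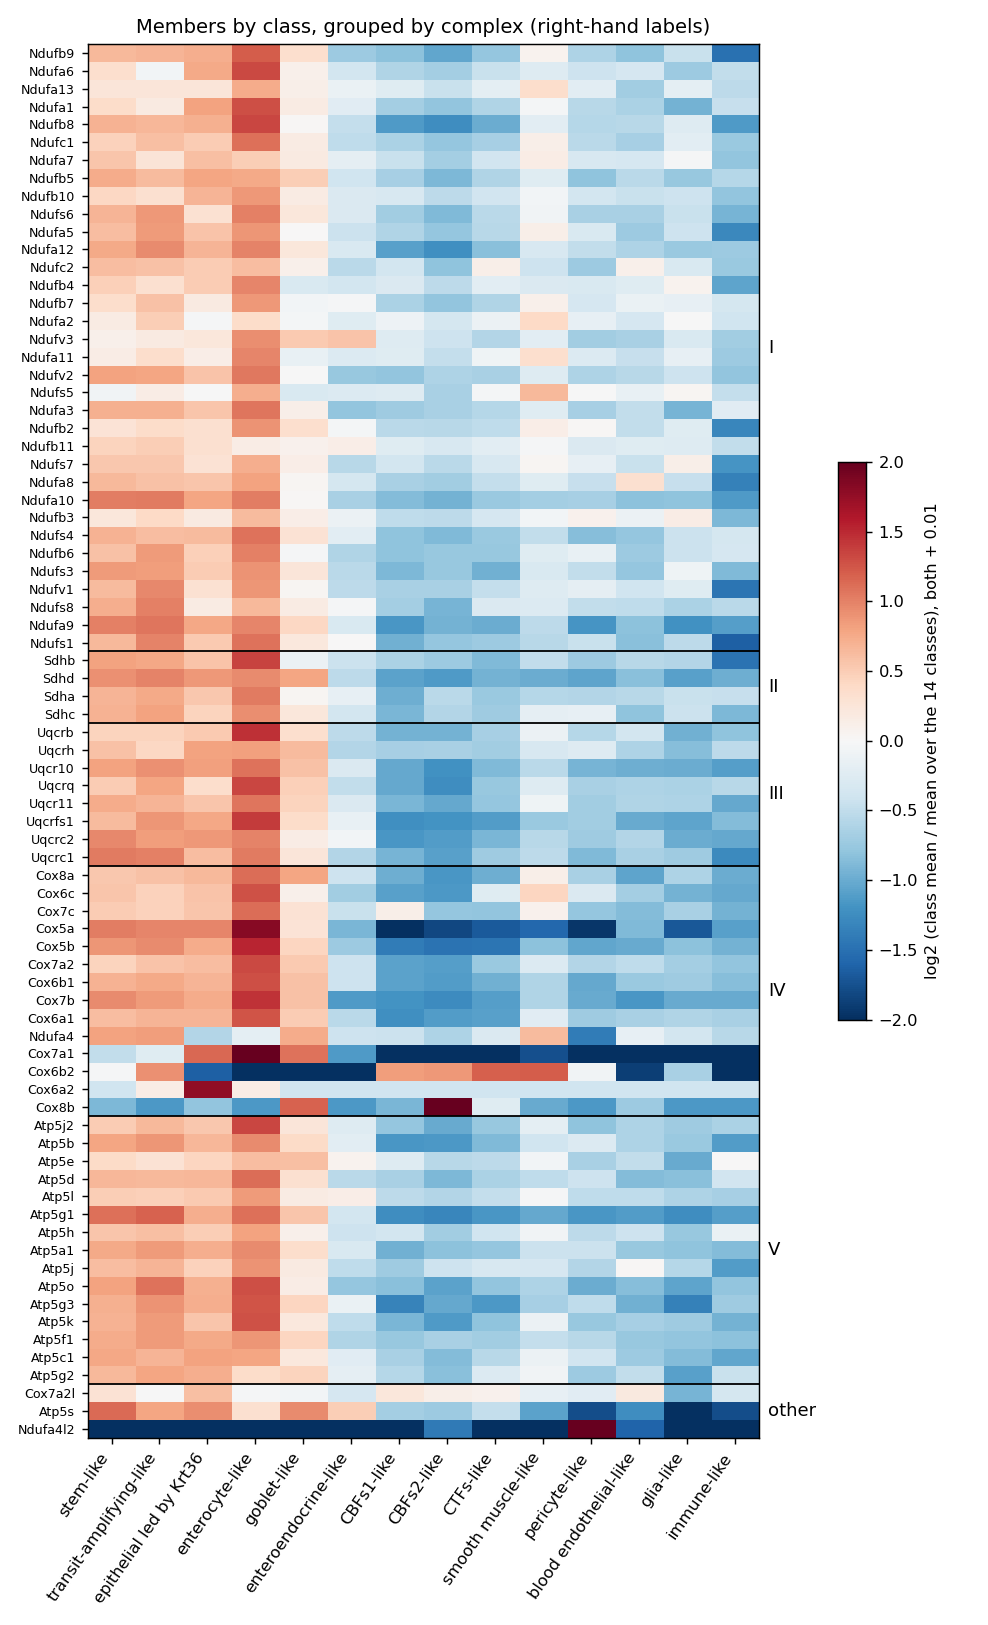
Level of members (rows, grouped by complex) in each class (columns) of the wild-type library as the log2 ratio to its mean over classes, with the colour held at 2 in either direction. Most rows are highest in the enterocyte-like column, and Ndufa4l2, Cox8b and Cox6b2 stand out in stromal columns.

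Epithelial cells as a whole exceeded fibroblasts in nearly all members. The member sum was 419 in 2411 epithelial cells and 161 in 2492 fibroblasts, a ratio of 2.61 (1.38 on the log2 scale). Of 76 members with a mean of at least 0.05 in either group, 57 were at least 2-fold higher and 1 was at least 2-fold lower, against 34.6% and 17.8% of all genes passing the same filter. The median log2 ratio of these members was 1.37, beside 0.48 for all genes. Single-gene ratios here and below were taken after adding 0.01 to both means.

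The complexes differed in how far apart epithelium and fibroblasts were. Summed over its subunits, complex IV, the oxygen-reducing end of the chain, was higher in epithelial cells by 1.68 on the log2 scale, complex III by 1.63, complex II by 1.59, ATP synthase by 1.38 and complex I by 1.06. Complex I therefore made up 25.2% of the member sum in epithelial cells and 31.5% in fibroblasts, and complex IV 29.6% and 24.1%.

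The largest ratio belonged to Cox7a1, the form of the Cox7a subunit known from heart and skeletal muscle, at 1.45 in epithelial cells and 0.0377 in fibroblasts (log2 ratio 4.94). Its fibroblast level was 2.60% of the epithelial one, beside 2.56% for Epcam, and the part of free RNA in that level was not tested. Cox5a followed at 12.9 against 1.65 (log2 2.96) and Cox5b at 11.5 against 2.19 (log2 2.39). Both encode subunits around the catalytic core of complex IV. Among the catalytic and core subunits of the other complexes, Sdhb, the iron-sulphur subunit of succinate dehydrogenase, was 2.62 against 0.925, and Sdha, its flavoprotein, 1.76 against 0.653. Uqcrfs1, the Rieske iron-sulphur protein of complex III, was 3.74 against 0.905, and Atp5b, the catalytic beta subunit of ATP synthase, 11.5 against 3.34. Ndufs1, the largest subunit of complex I, was 0.791 against 0.266, and Ndufv1, which binds NADH and FMN, 1.74 against 0.783.

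At the other end, Cox6b2, known as the testis form of the Cox6b subunit, was the 1 member past 2-fold in the opposite direction, at 0.118 in epithelial cells and 0.491 in fibroblasts (log2 -1.97). Cox7a2l, a factor that links complexes III and IV into supercomplexes, had log2 -0.02 (3.67 against 3.73).

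The 13 subunits encoded in mitochondrial DNA were less far apart than the nuclear ones. Their sum was 802 in epithelial cells and 478 in fibroblasts (log2 0.75), with 2 of 13 past 2-fold. The ratio of mitochondrially encoded to member counts was therefore 1.91 in epithelial cells and 2.97 in fibroblasts. Across classes it was lowest in TA-like cells at 1.74 and highest in pericyte-like (3.30), CTFs-like (3.20), glia-like (3.16) and enteroendocrine-like cells (3.1). Mitochondrial transcripts also track cell quality: their share had a median of 9.07% over all cells, 3043 cells lay above 10%, and the part that cell damage has in these ratios was not tested. Without the cells above 10%, the reverse ratio, member over mitochondrially encoded counts, was 0.662 in place of 0.523 in epithelial cells and 0.410 in place of 0.336 in fibroblasts. This limit removes cells by their mitochondrial counts, so the higher ratios follow largely from it and say nothing of cell damage.

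Other mitochondrial gene lists were read beside the members in the same comparison. Of the 22 genes of butyrate and fatty acid oxidation, 19 were at least 2-fold higher in epithelial cells, where 34.6% of all genes were. So were 12 of 17 genes of the TCA cycle and 9 of 12 biogenesis factors. Nearer to 34.6% were the mitochondrial ribosome (38 of 77 measured proteins), glycolysis (8 of 17) and mitochondrial protein import (8 of 18). The same held for complex I assembly (7 of 15), complex II to V assembly (13 of 30) and antioxidants (3 of 7). Of the 8 genes outside the symbol pattern 6 were at least 2-fold higher, and Cox4i1, the common form of the Cox4 subunit, was 18.8 against 6.55. None of 81 cytosolic ribosomal proteins passed 2-fold in either direction, and their median log2 ratio was 0.14. Among the carriers that exchange ADP, ATP and phosphate across the inner membrane, the paired forms of the adenine nucleotide carrier went opposite ways, with Slc25a5 at 13.8 against 1.98 and Slc25a4 at 0.252 against 3.95.

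Along the crypt axis, the members were higher in enterocyte-like than in TA-like cells, by 0.39 on the log2 scale for the sum (547 against 417). Of 76 members passing the filter 63 were higher, but only 4 rose past 2-fold and 2 fell past it, against 12.1% and 28.2% of all genes. The median of the members was 0.28 while that of all genes was -0.41. The 4 members past 2-fold were Cox7a1 (3.36 against 0.415), Ndufa6 (7.76 against 2.98), Ndufa1 (6.59 against 3.03) and Uqcrb (15.1 against 7.49). Ndufa6 and Ndufa1 are accessory subunits of complex I, and Uqcrb is a small subunit of complex III that contacts ubiquinone. Leaving out cells above 10% mitochondrial counts kept 121 enterocyte-like and 166 TA-like cells, and 2 members in place of 6 then passed 2-fold.

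Cox6b2 fell furthest, from 0.475 in TA-like to 0.0229 in enterocyte-like cells (log2 -3.88). Ndufa4, now counted as a complex IV subunit, fell from 9.72 to 4.77 (log2 -1.03), with a median over cells of 10 in TA-like and 4 in enterocyte-like cells. The third lowest, Atp5s, a coupling factor gene, was 0.198 against 0.140. By complex, the sums differed most for complex IV (log2 0.59), then complex III (0.46), complex I (0.35), complex II (0.24) and ATP synthase (0.22).

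Stem-like and TA-like cells could hardly be told apart in these genes. The log2 ratio of the sum was -0.03, and none of 76 members passed 2-fold in either direction, where 3% of all genes were higher and 6.23% lower by that much. Both enterocyte-like clusters gave near-equal sums, 542 in 456 cells led by Sptssb and Cyp2c55 and 559 in 199 cells led by Fxyd4 and Atp12a.

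Goblet-like cells, the mucus-making branch, held fewer member counts than TA-like cells. The sum was 333 against 417 (log2 -0.32) and 69 of 76 members were lower, with 1 past 2-fold up and 3 past it down, where 14.5% and 17.7% of all genes passed. The median was -0.45 for the members and -0.11 for all genes. Cox7a1 was higher (1.05 against 0.415, log2 1.32). Ndufv3, a small complex I subunit, had log2 0.35, and Atp5e, the epsilon subunit of the ATP synthase head, 0.32. Cox6b2 was lower by far (0.0234 against 0.475), and so was Ndufa10, an accessory subunit of complex I (1.29 against 2.60). The goblet-like class joins 314 cells led by Zg16 and Mptx1 with a Reg4 level of 39.8, where the sum was 305, and 285 cells led by B3gnt6 and Retnlb with a Muc2 level of 384, where it was 364. The study separates Reg4+ deep crypt secretory cells from Muc2+ goblet cells. The class values above are averages over both clusters.

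Enteroendocrine-like cells, the hormone-making cells, had the lowest epithelial values, with a sum of 203 against 417 in TA-like cells (log2 -1.04). Of 76 members 45 were at least 2-fold lower and none was 2-fold higher, against 18.4% and 28.6% of all genes. The median was -1.04 for the members and 0.23 for all genes. Cox7b (2.27 against 9.03) and Cox5a (3.16 against 11.7) were among the lowest after Cox6b2, and Ndufv3 was the only one of them with a log2 ratio above 0 (2.83 against 2.16, log2 0.39). The mitochondrially encoded sum in these 82 cells, 627, was close to the 599 of goblet-like cells.

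To follow the axis without class borders, the 1730 stem-like, TA-like, Krt36-led and enterocyte-like cells were ordered by a score of 12 crypt-top less 12 crypt-base genes and divided into 5 groups of 346. From base to top, Mki67 went from 2.47 to 0.0549 and Krt20 from 0.0116 to 11.3, and the share of enterocyte-like cells from 1.45% to 99.4%. Both genes are part of the score, and the enterocyte-like class was named with genes that are also in it. These courses therefore follow at least in part from the ordering and are no check of it. The borders are not natural breaks: 82, 69, 51 and 31 cells lay within 0.05 below them.

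The member sum was 335 in the lowest group (5th to 95th percentile 217 to 513), then 398, 437 and 562, and 564 (376 to 717) in the highest. The step between the middle and the fourth group was the widest, and the last step was within the spread of either group. As a share of all corrected counts the values were 3.47%, 4.15%, 4.61%, 5.84% and 5.80%. Mitochondrially encoded counts followed another course, at 820, 771, 780, 922 and 1112, and the median mitochondrial share of cells went from 9.06% to 13.5%. Of 76 members passing the filter, 68 were higher in the top than in the bottom group, 21 at least 2-fold, and 3 at least 2-fold lower, against 15% and 41.4% of all genes. The median log2 ratio was 0.60 for the members and -0.69 for all genes. The highest level was in the fourth group for 40 members and in the top group for 30, while 3 peaked in the bottom and 3 in the middle group. For these peaks the share over all genes was not counted.

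Complex IV had the steepest course. Its sum went from 92.7 to 187 (log2 1.02), 8 of its 14 members rose past 2-fold and 10 were higher at each of the 4 steps. Complex III went up by log2 0.81, complex I by 0.70, complex II by 0.60 and ATP synthase by 0.54, with 1 of 15 ATP synthase members past 2-fold. Over all complexes, 30 members were higher at every step. The share of all genes higher at every step was not counted.

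Cox7a1 had the largest ratio, from 0.124 through 0.312, 0.679 and 2.84 to 4.29. Ndufa1 went from 2.52 to 7.74, Ndufa6 from 2.96 to 9.04, Uqcrb from 5.76 to 17.3 and Ndufv3 from 1.40 to 3.99, each higher at every step. Among core subunits with smaller differences were Uqcrc1 (2.92 to 3.36), Uqcrc2 (3.20 to 3.67), the structural core proteins of complex III, and Atp5b (10.9 to 13.5). Ndufa4 went the other way at each step, 9.68, 9.26, 6.08, 4.86 and 3.08. Cox6b2 summed to 169 corrected counts in the 346 cells of the bottom group and to 65, 26, 6 and 1 in the next ones. Atp5s went from 0.243 to 0.113.

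**Figure D3:**
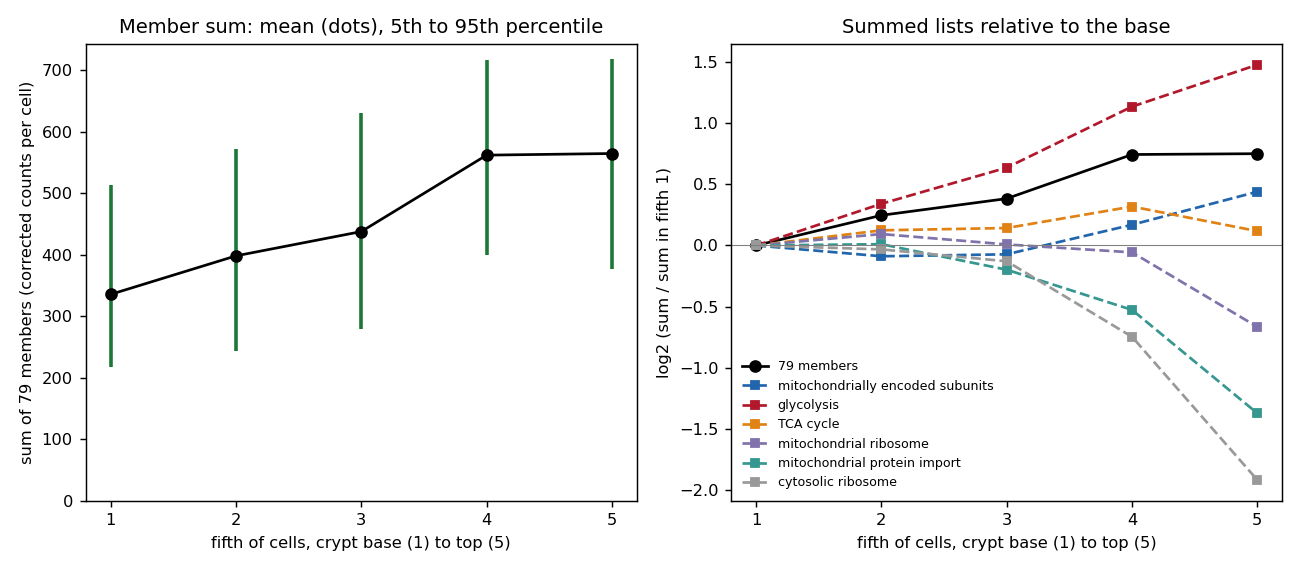
Left, the member sum (y axis, corrected counts per cell, mean with the 5th to 95th percentile of cells) in 5 groups of 346 cells from crypt base to top (x axis), and right, the log2 ratio of the member sum and of 6 other lists to the base group. The sum goes from 335 to 564 and is level between the last groups, while glycolysis ends at 1.48 and the cytosolic ribosome at -1.92.

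Glycolysis genes (log2 1.48 for their sum, top over bottom group) and the nucleotide and phosphate carriers (1.46) had larger ratios than the members, and mitochondrial antioxidants (0.75) and the 8 genes outside the pattern (0.80) were near them. TCA cycle genes (0.12) and butyrate and fatty acid oxidation genes (0.28) were nearer to level. Mitochondrial protein import (-1.37), the mitochondrial ribosome (-0.67), complex I assembly factors (-0.77) and the cytosolic ribosome (-1.92) were lower at the top.

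Smooth muscle-like, blood endothelial-like and pericyte-like cells were next compared with all fibroblasts. For its own smooth muscle cluster, the study could not exclude that myofibroblasts were among the cells. Smooth muscle-like cells had a sum of 236 against 161 (log2 0.55), and 72 of 76 members were higher. Only 4 passed 2-fold, none of them downward, where 6.26% of all genes were higher and 10.2% lower by that much. The median was 0.45 for the members and -0.07 for all genes. The 4 were Cox7a1 (0.139 against 0.0377), Cox6c (13.9 against 6.06), Cox8a (13.6 against 6.23) and Ndufa4 (8.52 against 4.09), all of complex IV, whose sum was 0.82 higher on the log2 scale, beside 0.27 for complex II. At the low end, Atp5s had log2 -0.45, Cox7a2l -0.32 and Ndufc2, a complex I subunit, -0.14. The Cox7a1 level was 9.57% of the epithelial one in smooth muscle-like and 2.60% in fibroblast cells, beside 2.53% and 2.56% for Epcam, and the part of free RNA in these levels was not tested.

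Blood endothelial-like cells were close to fibroblasts, with a sum of 174 against 161 (log2 0.11, and 0.22 as a percent of all counts). The class joins 492 cells led by Esm1 and Kdr with a sum of 178 (2.24% of all counts) and 98 led by Selp and Madcam1. In the latter the sum was 152 (1.68%), below the 161 (1.85%) of fibroblasts. Epcam averaged 1.41 and 1.40 in these clusters, beside 0.644 in fibroblasts, and the part of free RNA in the sums was not tested. Of 76 members 1 passed 2-fold up, Ndufa4l2 (0.131 against 0.0486), and 1 down, Cox6b2 (0.0593 against 0.491), where 12.4% and 19.2% of all genes did. Cox5a (3.22 against 1.65, log2 0.96) and Ndufa8 (2.02 against 1.06, log2 0.92) came next, and Atp5s (-0.63) and Cox7c (-0.57) were at the low end. The medians were 0.10 for the members and -0.20 for all genes. In the cluster led by Esm1, Ndufa4l2 averaged 0.132 and the pericyte marker Rgs5 2.03, beside 5.43 and 33.5 in pericyte-like cells. The part of RNA from pericytes in the Ndufa4l2 level was not tested.

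Pericyte-like cells, the contractile cells around small vessels, were set apart by 1 member. Their sum was 181 against 161 in fibroblasts (log2 0.18), and of 76 members 1 was past 2-fold up and 2 past it down, against 10.7% and 20.2% of all genes. The member that rose was Ndufa4l2, a relative of Ndufa4 known to be induced by hypoxia-inducible factor, at 5.43 against 0.0486. Cox6b2 (0.235 against 0.491, log2 -1.03) and Atp5s (0.0252 against 0.0682, which is 3 corrected counts in the 119 cells) were lower, and Ndufa4 itself had log2 -0.97 (2.08 against 4.09). Atp5b (log2 0.80) and Atp5g3 (0.68) were the next highest.

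Ndufa4l2 was above 0 in 109 of 119 pericyte-like cells (91.6%, exact 95% interval 85.1 to 95.9), with a median of 5 and a highest value of 18. In the next classes it was above 0 in 9.84% of CBFs2-like, 6.61% of blood endothelial-like and 2.64% of CBFs1-like cells, in 1 of 797 CTFs-like cells, and in 0 of 514 stem-like cells, which allows a share with a value above 0 of up to 0.584%. These intervals and limits cover counting error only, and a limit is on cells with a value above 0, not on cells that express the gene. Pericyte-like cells held 49.1% of all its counts in the library while being 119 of 7495 cells. Outside the named classes, an unnamed cluster of 100 cells that was also high in Rgs5 averaged 4.17, with 82 cells above 0. Of the summed counts of the pair, Ndufa4l2 was 72.3% in pericyte-like cells, and it exceeded Ndufa4 in 83 of the 119 cells. Ndufa4l2 was also among the leading genes of the pericyte-like cluster although it was kept out of the clustering features. The level is therefore given as a description.

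Cox4i2, the form of Cox4 with a hypoxia response, lies outside the symbol pattern and had a related pattern. It averaged 4.55 in pericyte-like cells (98 of 119 cells above 0, 82.4%), 0.513 in CTFs-like cells (167 of 797, 21.0%, interval 18.2 to 23.9) and 0.0271 in CBFs-like cells. It was 43.3% of the Cox4i1 and Cox4i2 counts in pericyte-like and 7.30% in CTFs-like cells. Ndufa4l2 and Cox4i2 were both above 0 in 90 of 119 pericyte-like cells (75.6%). In CTFs-like cells Cox4i2 was uneven: at higher clustering resolution it was 1.66 in a CTFs-like cluster of 221 cells led by Lpar3 and Dmp1 and 0.0768 in another of 599, and in the reporter library 0.557 in 122 and 0.0287 in 523 cells. In CBFs2-like cells Ndufa4l2 averaged 0.150 and Cox4i2 was above 0 in 3 of 559 cells.

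**Figure D4:**
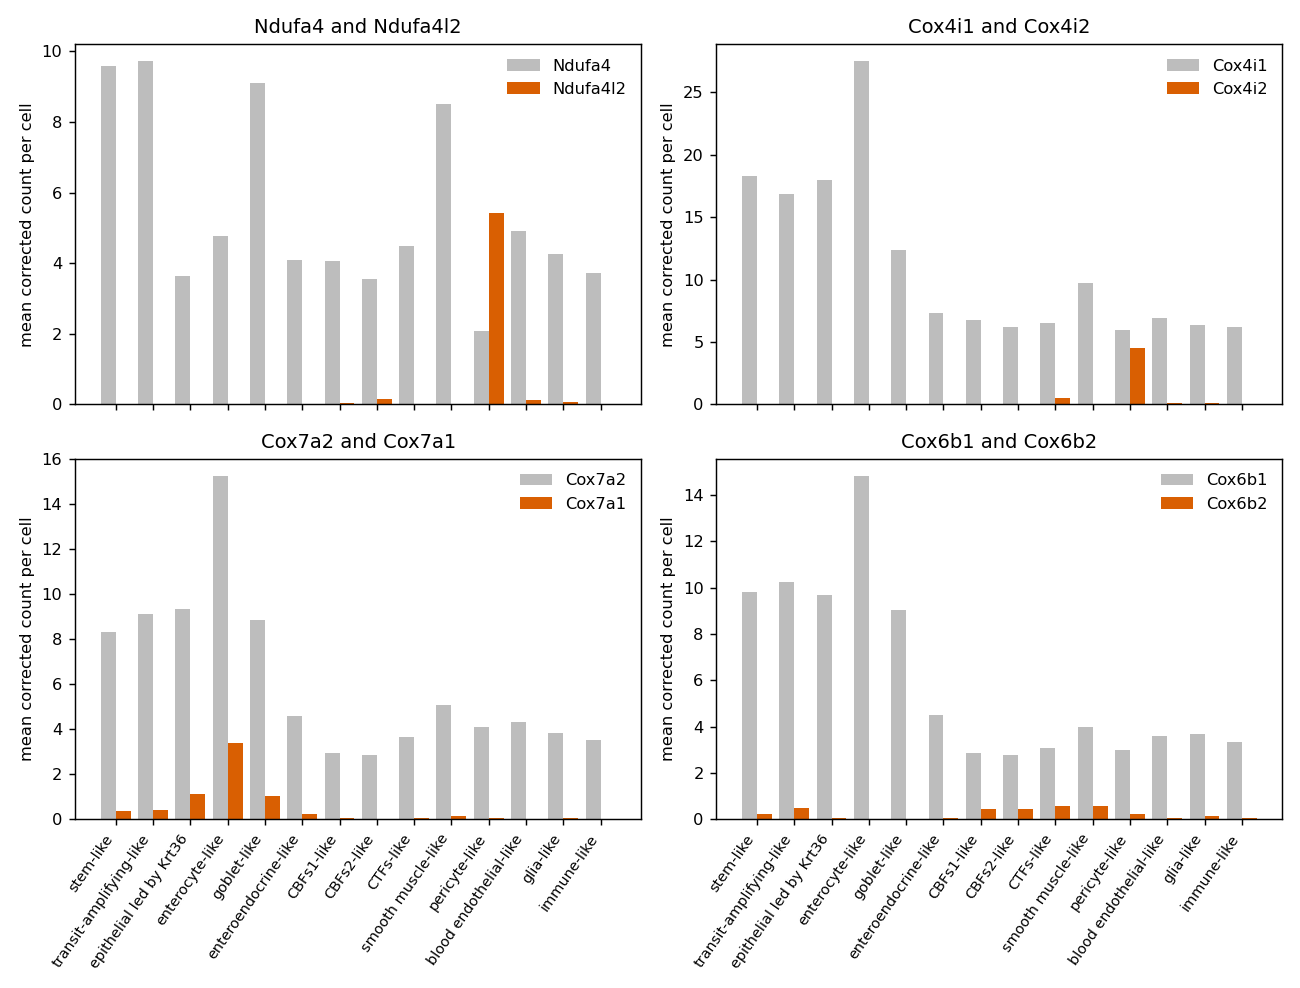
Levels of paralogous subunit genes in the classes of the wild-type library, mean corrected count per cell, as the panels state. Ndufa4l2 (5.43) and Cox4i2 (4.55) peak in pericyte-like cells, and Cox7a1 (3.36) in enterocyte-like cells.

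Among the other sets of related genes, Cox7a1 was above 0 in 554 of 655 enterocyte-like cells (84.6%), in 22.2% of stem-like, 29.5% of TA-like, 51.7% of the Krt36-led and 49.9% of goblet-like cells, and in 3.01% of fibroblasts. Even in enterocyte-like cells Cox7a2, the common form, was the larger at 15.2, and Cox7a1 was 18.1% of the pair. Cox6b2 was between 0.446 and 0.586 in CBFs1-like, CBFs2-like, CTFs-like and smooth muscle-like cells, 0.475 in TA-like cells and 0.0229 in enterocyte-like cells, next to Cox6b1 at 2.77 to 3.97 in those stromal classes and 14.8 in enterocyte-like cells. Cox6a2, the muscle form of Cox6a, was listed above 0 in 12 of 344 cells led by Krt36 (3.49%) and at 0 in 949 smooth muscle-like cells, which allows up to 0.316% with a value above 0. The genes Atp5g1, Atp5g2 and Atp5g3 encode the same mature c subunit of ATP synthase. They gave 43.3%, 23.8% and 32.9% of its counts in enterocyte-like cells, 44.4%, 30.8% and 24.8% in TA-like cells and 31.5%, 46.8% and 21.8% in fibroblasts. These shares are of the wild-type library only. In CTFs-like cells of the reporter library Atp5g2 was the lowest of the set, at 0.0452 beside 0.925 for Atp5g1 and 0.637 for Atp5g3.

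Promoter sequences of RefSeq on GRCm38.p6, from 250 bases before to 50 after the start, were matched to 67 of the 79 members. Those of Cox6b1, Cox6b2 and Cox7a1 are shown because the first is a widely expressed subunit gene and the others differed most between classes among the complex IV genes with a window and a mean of at least 0.05 (no window was matched for Ndufa4l2), and those of Sdhb and Cox6a1 because they hold the NRF1 core. Each reads 5' to 3' on the strand of its gene, and capitals mark the motifs NRF1 core (GCATGCGC), a site of nuclear respiratory factor 1, and GABPA/ETS (CCGGAAG), each on either strand.
Sdhb, chr4:140961021-140961320, plus strand: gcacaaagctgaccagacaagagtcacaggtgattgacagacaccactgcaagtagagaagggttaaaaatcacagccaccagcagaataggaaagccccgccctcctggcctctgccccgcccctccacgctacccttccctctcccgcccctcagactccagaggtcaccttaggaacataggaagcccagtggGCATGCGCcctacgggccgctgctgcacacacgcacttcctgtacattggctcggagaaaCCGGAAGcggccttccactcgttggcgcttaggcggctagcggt
Cox6a1, chr5:115348909-115349208, minus strand: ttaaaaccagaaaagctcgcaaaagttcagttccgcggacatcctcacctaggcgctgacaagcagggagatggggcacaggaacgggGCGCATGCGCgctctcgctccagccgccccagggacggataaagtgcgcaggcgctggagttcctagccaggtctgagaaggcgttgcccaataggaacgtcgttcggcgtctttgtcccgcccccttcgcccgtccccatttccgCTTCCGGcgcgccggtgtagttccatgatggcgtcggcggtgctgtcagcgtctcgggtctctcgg
Cox6b1, chr7:30626065-30626364, minus strand: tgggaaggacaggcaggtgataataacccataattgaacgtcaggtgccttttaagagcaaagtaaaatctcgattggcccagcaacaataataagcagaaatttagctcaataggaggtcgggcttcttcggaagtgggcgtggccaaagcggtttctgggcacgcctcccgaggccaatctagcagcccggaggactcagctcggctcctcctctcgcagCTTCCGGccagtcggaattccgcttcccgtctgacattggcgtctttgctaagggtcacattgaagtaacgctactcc
Cox6b2, chr7:4753045-4753344, minus strand: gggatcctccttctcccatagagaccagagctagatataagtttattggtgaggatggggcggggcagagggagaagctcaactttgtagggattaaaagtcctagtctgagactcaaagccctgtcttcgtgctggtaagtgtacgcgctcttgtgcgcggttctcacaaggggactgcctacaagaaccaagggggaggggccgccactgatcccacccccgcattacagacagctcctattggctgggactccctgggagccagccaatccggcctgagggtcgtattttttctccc
Cox7a1, chr7:30183921-30184220, plus strand: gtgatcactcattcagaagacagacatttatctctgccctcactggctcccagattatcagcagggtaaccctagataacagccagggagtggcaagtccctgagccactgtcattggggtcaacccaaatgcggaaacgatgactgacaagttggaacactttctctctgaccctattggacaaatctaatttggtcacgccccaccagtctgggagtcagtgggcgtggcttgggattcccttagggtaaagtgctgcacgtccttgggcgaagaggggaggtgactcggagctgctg
The Sdhb window holds 1 of each motif, the Cox6a1 window a palindromic pair of overlapping NRF1 cores and 1 GABPA/ETS match, and the Cox6b1 window 1 GABPA/ETS match. No match of the 4 motifs searched was in the windows of Cox6b2 and Cox7a1, which says only that these letters are not there. Over the 67 members, the NRF1 core was in 10 (14.9%, beside 5.15% of 12581 genes of the table), GABPA/ETS in 16 (23.9%, beside 16.9%), YY1 (AANATGGC) in 17 (25.4%, beside 8.74%) and the ERR site (TCAAGGTCA) in 2 (2.99%, beside 0.310%). None of the 4 was found in 30 members, and 8 held at least 2 kinds. The Cox6b2 and Cox7a1 genes lie on chromosome 7 at 4751792 to 4753094 and 30184144 to 30186078, and Cox6b1 at 30616861 to 30626151 (GRCm38, GENCODE), all protein coding.

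The last comparison is between fibroblast positions, which the study separated into CTFs, next to the differentiated epithelium, and CBFs, next to the stem cells. In the wild-type library, CTFs-like cells had a sum of 170 and CBFs-like cells of both kinds 156 (log2 0.12). Of 76 members 67 were higher in CTFs-like cells, but none rose past 2-fold and only Ndufa4l2 was lower by more, against 5.55% and 7.29% of all genes, and the medians were 0.12 and -0.03. As a percent of all counts the ratio was 0.17, and 0.20 with each cell thinned to 1000. Cox6c (log2 0.87) and Ndufc2 (0.62) had the highest ratios, and Cox7c (-0.68) and Ndufv3 (-0.28) the lowest after Ndufa4l2. Cox7c separated the crypt-bottom kinds, at 10.8 in the first kind and 5.76 in the second, beside 5.70 in CTFs-like cells.

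The reporter library gave 598 CTFs-like and 852 CBFs2-like cells, while no cluster could be named CBFs1-like. The CTFs-like cluster there was led by the contractile genes Tagln, Acta2 and Myl9 beside Bmp3, Wif1 and Sox6. Its member sum was 63.6 against 54.8 (log2 0.22), but 0.12 as a percent of all counts, so the size rests on the scale. Clusters without a name were outside this comparison. That of 1167 cells led by Adamdec1 and Vstm4 had a sum of 69.6 (2.16%), above CTFs-like cells (1.97%) on both scales. That of 520 cells led by Spock3 and Cxcl5 had 65.4, but a lower percent than CTFs-like cells. That of 1106 cells led by Sbno2 and Tnfaip3 was lower on both scales, at 56.3 (1.86%). The direction thus holds against CBFs2-like cells, not against every cluster. In CTFs-like over CBFs2-like cells, 3 of 75 members rose past 2-fold, all of complex I, and 2 fell, where 15.2% and 7.70% of all genes did. The member median was 0.28 and that of all genes 0.37. Among those that rose were Ndufa9 (log2 1.19) and Ndufs8 (log2 1.11), and the 2 that fell were Ndufa4l2 and Cox8b.

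Ndufa4l2 was above 0 in 50 of 852 CBFs2-like cells (5.87%) and in 0 of 598 CTFs-like cells of the reporter library, which allows a share with a value above 0 of up to 0.502%. Taking 3 counts over the CTFs-like cells as the floor, its level in CBFs2-like cells was 15.0-fold that floor. The counting error of the 64 counts in CBFs2-like cells is not in this ratio, so it is not a lower limit. Cox8b, known from heart and skeletal muscle and from brown fat, was above 0 in 47 of 852 CBFs2-like cells (5.52%) and in 2 CTFs-like cells. In the wild-type library it was above 0 in 35 of 559 CBFs2-like cells (6.26%) and 7 of 797 CTFs-like cells. A small subset held much of these counts: at higher clustering resolution 34 of the 50 reporter cells above 0 fell in 1 unnamed cluster of 67 cells, which left 13 of 785 CBFs2-like cells (1.66%), and in the wild-type library 16 of 472 CBFs2-like cells (3.39%) were left beside 19 of 34 in an unnamed cluster.

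With the same classes on both sides, CTFs-like over CBFs2-like, the sum had a log2 ratio of 0.23 in the wild-type library, with 0 members past 2-fold up and 2 down of 77, against 7.72% and 10.7% of all genes. Of 75 members that passed the filter in both libraries, 51 were higher in CTFs-like cells in both, 5 lower in both and 19 went opposite ways. The same direction was thus shared by 74.7% of members and by 72.1% of all 7102 genes, a share near the background. Ndufa4l2 and Cox8b were at the low end of the range in both. The libraries differ in kit, sort and strain, which cannot be told apart.

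**Figure D5:**
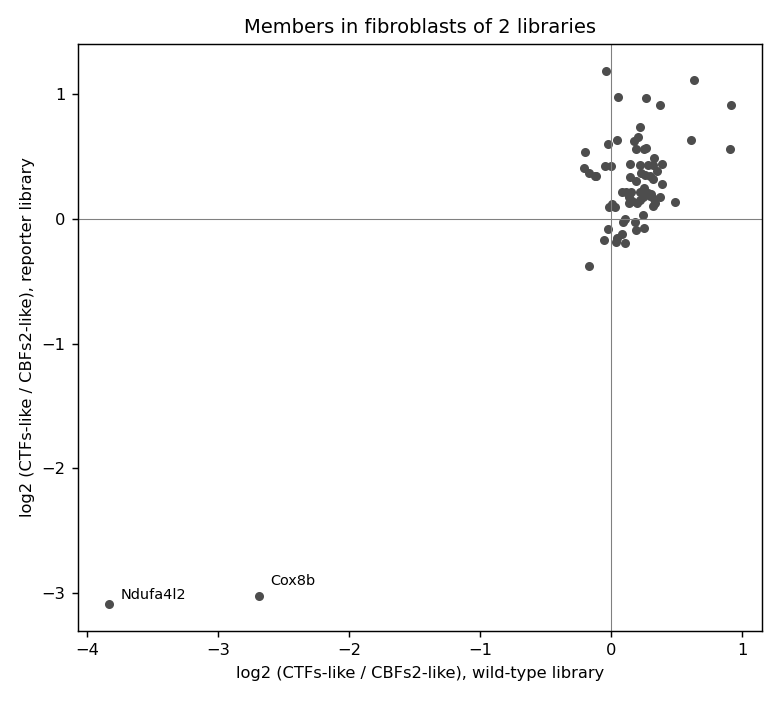
Log2 ratio of CTFs-like over CBFs2-like cells for members in the wild-type (x axis) and reporter library (y axis), after adding 0.01 to each mean. Most points lie above 0 on both axes, with Ndufa4l2 and Cox8b at the lower end, where the ratios depend on the added value.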

How the data were processed

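The 2 libraries of mouse colon cells, each pooled from 3 mice, were analysed. The authors aligned reads to mm10 and counted UMIs with Cell Ranger, filtered cells and genes and applied SCTransform in Seurat 3.1 under R 3.6.2. The deposited score values are whole numbers, UMI counts that SCTransform had brought to 1 common depth (corrected counts), and the deposited natural log values are ln(1 + that value). This unit was read from the values, since raw depth was not kept. The study's limits of 500 to 7500 genes and under 25% mitochondrial counts would keep 7394 of the 7495 wild-type cells. Reporter cells were held to a lower upper limit of genes and to under 10% mitochondrial counts.

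Cells were clustered from the log values in Seurat 5.3.0 (R 4.3.3) with 30 principal components and resolutions of 0.45 (wild-type) and 0.3 (reporter). Of 3000 variable features, the members, mitochondrially encoded genes and listed gene sets were removed, which left 2980. Epithelial cells were clustered again. Clusters were named from 21 marker lists, which needed 3 markers at log2 1 or more over other cells in at least 10% of cells. An epithelial cluster that failed took the name of a goblet, enterocyte or enteroendocrine cluster that held at least 80% of its cells. These naming rules were set after the clusters were seen. Scrublet (scanpy 1.11.5) marked 7 wild-type (0.0934%) and 5 reporter cells (0.113%), so few that it has not worked on corrected counts, and doublets were kept.

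Levels are means per cell. Single-gene ratios add 0.01 and need a mean of 0.05 in either class, and a call is a 2-fold difference. Named genes were pairs of related forms, core subunits, the 3 highest and 3 lowest ratios of each comparison, and the 3 highest and lowest levels. Results of 1 member are not reported here. Members and lists were chosen with earlier results of these data known. Ratios were tested on simulated data. Alternatives changed the resolution, clustering features, scale, mitochondrial limit, doublets, depth, highest members, fold and filter, and 4 for the crypt axis were chosen after seeing the data. Shares have exact (Clopper-Pearson) 95% intervals, and the floor for a value of 0 is 3 counts. Coordinates are from GENCODE M21 on GRCm38. Atp5c1, Atp5k, Atp5l and Uqcrh have a named pseudogene and Atp5o shares exon sequence with Donson, so their counts are less certain. Python 3.11.15, numpy 2.4.6, scipy 1.17.1 and matplotlib 3.10.9 were used.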

Additional observations from a re-analysis of the deposited data

How the results depend on the processing

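No paired analysis was possible because each group is part of 1 library and no replicates exist. The sums of the 7 comparisons kept their direction under all 9 alternatives. The values (log2) below moved beyond the counting interval of the value reported, which is narrow and holds no difference between mice.

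As a percent of all counts, the ratios were 0.42 for enterocyte-like over TA-like, -0.34 for goblet-like over TA-like, 1.21 for epithelial over fibroblast, 0.22 for blood endothelial-like over fibroblast, and for CTFs-like over CBFs-like 0.17 in wild-type and 0.12 in reporter cells. With mitochondrially encoded genes out of that total, they were 0.48, -0.37, 1.22 and 0.22 in the same order, 0.19 and 0.11 for the fibroblast comparisons, 0.58 for smooth muscle-like over fibroblast and 0.80 for the top over the bottom group of the crypt axis (an alternative chosen after seeing the data). Thinning each cell to 1000 gave 0.42, -0.37, 1.21, 0.23, 0.20, 0.12 and 0.56. Without the 10 highest members they were 0.33, -0.43, 1.37, 0.15, 0.15, 0.29 and 0.49.

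At higher clustering resolution the ratios were 0.44 for enterocyte-like over TA-like, 1.38 for epithelial over fibroblast, and 0.16 and 0.28 for the fibroblast comparisons. With members kept in the clustering features they were 0.41 for enterocyte-like over TA-like and 0.15 for CTFs-like over CBFs-like in the wild-type library. The exponent of the mean ln(1 + value) gave 1.48 for epithelial and 0.61 for smooth muscle-like over fibroblast, and 0.28 in the reporter library. Without cells above 10% mitochondrial counts, they were 0.37 for enterocyte-like over TA-like, 1.31 for epithelial and 0.092 for blood endothelial-like over fibroblast, and 0.71 for the crypt axis (also chosen after seeing the data). The causes were not tested.

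At 1.5-fold in place of 2-fold, 16 in place of 6 members passed for enterocyte-like and 26 in place of 4 for goblet-like over TA-like cells, 26 in place of 4 for smooth muscle-like and 5 in place of 2 for blood endothelial-like over fibroblast, and 4 in place of 1 and 15 in place of 5 for the fibroblast comparisons. Higher resolution gave 8 in the reporter library. In the wild-type fibroblast comparison the exponent scale gave 0 in place of 1, which loses the only call (Ndufa4l2), and no filter on low values gave 2. Smooth muscle-like over fibroblast gave 2 in place of 4 without the 10 highest members, and enterocyte-like over TA-like 2 in place of 6 without cells above 10% mitochondrial counts. With no replicate, depth unknown and 3 mice pooled, none of these values has an error between mice.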

Other observations

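Small clusters held rare forms of the subunits. At higher clustering resolution, Cox8b led a cluster of 34 wild-type cells with a mean of 1.32, above 0 in 19 of them (55.9%, exact interval 37.9 to 72.8), with Ptn, a secreted growth factor, and Tmem229a next. In the reporter library a cluster of 67 cells led by Chodl, Ctxn3 and Cox8b had a mean of 1.01, with 34 cells above 0 (50.7%, interval 38.2 to 63.2). Ptn, Tmem229a and Chodl were among the 8 leading genes of both clusters. Cox8b was above 0 in 67 cells of the whole wild-type library. These clusters were picked after their values were seen, with Cox8b itself kept out of the clustering features.

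An unnamed cluster of 100 wild-type cells led by Notch3, Ndufa4l2 and Heyl had an Ndufa4l2 level of 4.17 (82 cells above 0), a Cox4i2 level of 4.06 and an Rgs5 level of 30.7, next to 33.5 for Rgs5 in pericyte-like cells. A cluster of 20 cells led by Pcp4, Hand1 and Cckar had the highest Cox4i2 level of any cluster outside the epithelium, 6.35, with Ndufa4 at 13.4 and Ndufa4l2 at 0.3.

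In the reporter library, 52 cells led by Reg3b, Pigr and Epcam had a member sum of 168, against 54.6 to 69.6 in the other clusters, and Cox7a1 above 0 in 25% of cells. Of the genes for the c subunit of ATP synthase, Atp5g2 averaged 0.0452 in CTFs-like cells of that library, with 27 of 598 cells above 0, beside 0.925 for Atp5g1 and 0.637 for Atp5g3. In CTFs-like cells of the wild-type library the same gene averaged 3.68, above the 2.17 of Atp5g1. The kit, sort, mouse line and cell filter differ between the libraries, and the source of this difference was not tested.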
